A study of Rattus norvegicus with 12 samples.

Results

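The GABA-A receptor subunits described here are the genes Gabra2, Gabra3, Gabra4 and Gabra5, which encode alpha subunits, Gabrb1 and Gabrb2, which encode beta subunits, and Gabrd, which encodes the delta subunit. Members were the probes of an Agilent rat oligonucleotide array that carry these gene names, taken over 12 arrays whatever their signal. This gave 7 genes of 35611 gene names, and 7 of 41012 probes, since each gene had 1 probe in 1 spot. Of the 7 genes, 6 were found by name. Gabra2 stands in the array design under a provisional locus name (LOC289606) and was found through its gene ID in the RefSeq gene table, so its assignment rests on that ID.

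Each array held RNA from the dorsal striatum of 1 male rat. All 12 rats had received 9 µg of 6-hydroxydopamine (6-OHDA), a toxin that destroys dopamine neurons, in the left substantia nigra pars compacta, and they formed 4 groups of 3. The 6-OHDA group had the lesion and no further treatment. The HFS group was given continuous high-frequency stimulation of the subthalamic nucleus for 5 days (130 Hz, pulses of 80 µs, 60 µA). For the DOPA group, 2 daily injections over 19 days combined L-DOPA (25 mg/kg) with the decarboxylase inhibitor benserazide (12.5 mg/kg), a regimen that causes dyskinesia. In the DOPA/HFS group the 5 days of stimulation fell at the end of such an L-DOPA treatment. No group was without a lesion, so the values say nothing of the lesion itself. An electrode was implanted only in the stimulated groups, so implantation and stimulation cannot be told apart. Likewise, injections and benserazide were given only with L-DOPA, so the 3 cannot be told apart. Ages are not given in the sources used here, and the punched pieces of each striatum were pooled before extraction.

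GABA-A receptors are chloride channels made of subunits around a central pore, and they carry most of the fast inhibition in the brain. Receptors with an alpha subunit, a beta subunit and a gamma subunit gather at synapses, whereas those with alpha4 and delta, or with alpha5, lie largely outside them and respond to the low GABA level around the cells. The main neurons of the striatum, the medium spiny projection neurons, release GABA, receive it from interneurons and from each other, and are known for alpha2, alpha4, beta and delta subunits.

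On the arrays, 50.5 to 63.2% of the spots were well above background, and 20465 genes were tested after dim probes were left out. The scanner software had marked 2 to 25 spots as outliers on 11 of the arrays and 4175 on DOPA/HFS replicate 3, so the differences that moved by over 1.5 times without this array are also given without it. None of the 7 subunit spots was marked as an outlier or saturated on any array. All 11 measured markers of striatal projection neurons were well above background on every array, with a summed signal of 262795 to 368218. The summed ranges of the lists for striatal interneurons, thalamic neurons, astrocytes, oligodendrocytes, microglia and endothelium overlapped between all 4 groups. Of 4 measured cortical excitatory neuron markers, 1 was well above background on every array and Neurod1 on none, with a summed signal of 121 to 368. The summed signal of 8 choroid plexus markers was 4399 to 89546 in HFS, 293 to 578 in 6-OHDA, 286 to 16603 in DOPA and 138 to 987 in DOPA/HFS, with 2 of the 8 well above background on every array and none of them at background on all arrays, and its part in the differences given here was not tested. A spot left out as an outlier adds nothing to these sums, and most such spots were on DOPA/HFS replicate 3. How far this lowered the DOPA/HFS sums was not tested. In pieces of tissue, fewer cells of a type and less RNA per cell cannot be told apart.

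All 7 subunit genes passed the filter on dim probes. Gabra2, Gabra3, Gabra4, Gabra5, Gabrb1 and Gabrd were well above background on all 12 arrays, and Gabrb2 on 8 of them. Values are log2 signals after quantile normalization, and since each gene has a probe of its own they compare groups for that gene and not genes with each other. The variation within groups differed between the subunits. The SD within groups was 0.17 for Gabra2, 0.19 for Gabra4, 0.19 for Gabrb1 and 0.20 for Gabrd, against a median of 0.27 over 18355 genes with a value on every array. It was 0.36 for Gabra5, 0.47 for Gabra3 and 0.56 for Gabrb2.

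**Figure D1:**
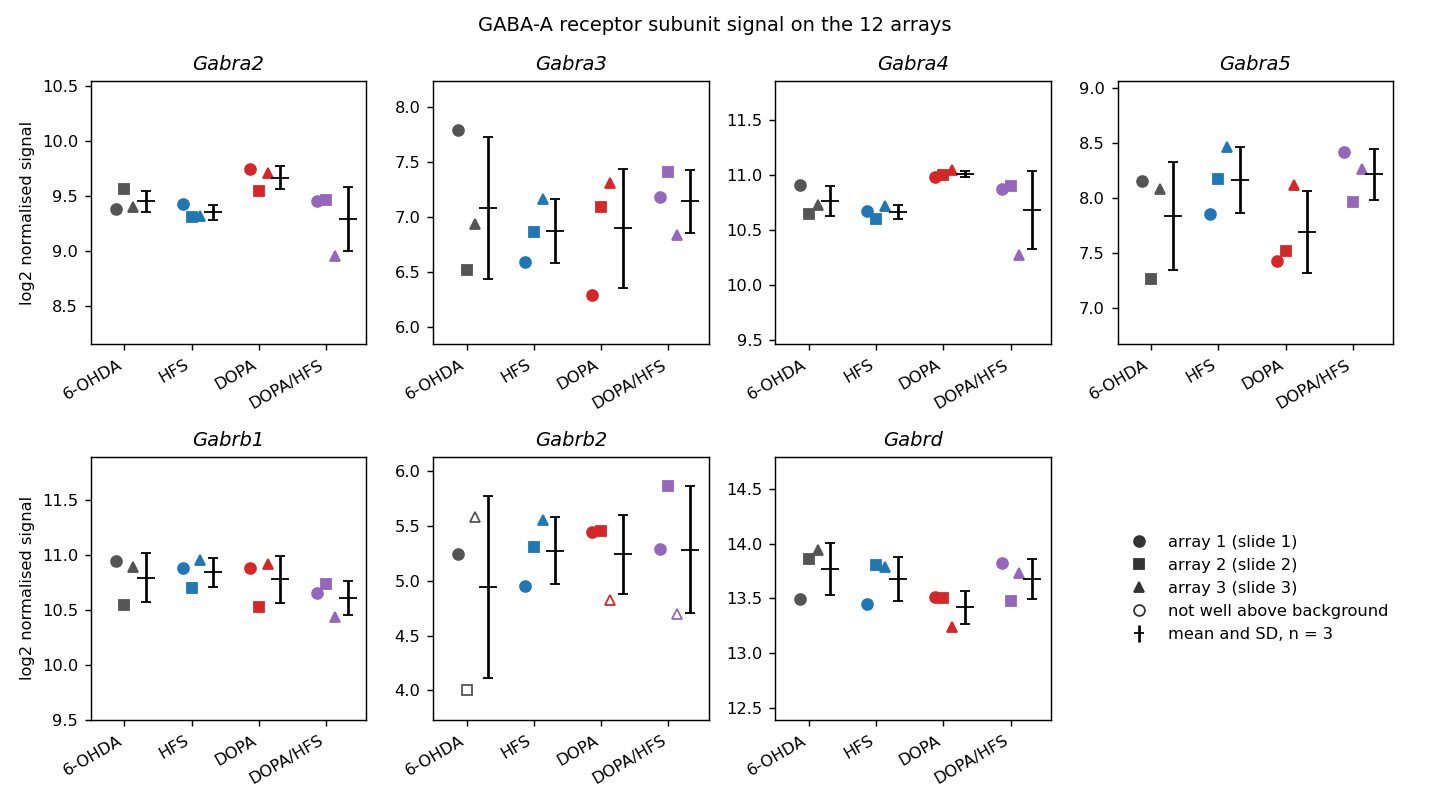
Log2 normalised signal of each GABA-A receptor subunit gene on the 12 arrays, by group (x axis). The symbol gives the replicate number, which is also the slide, open symbols are spots not well above background, and the bars are the mean and SD of 3 arrays. All panels span the same range of log2 units. The 3 DOPA arrays of Gabra4 (10.98 to 11.04) lie above the 3 arrays of 6-OHDA, and DOPA/HFS replicate 3 is the lowest array for Gabra2, Gabra4 and Gabrb1.

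None of the 7 subunit genes was called in any comparison, where a call needs a limma p adjusted over all genes (Benjamini-Hochberg) under 0.1 together with a fold above 1.2 or below 0.8. The background was as sparse. The share of all tested genes called was 0% for HFS against 6-OHDA, 0.00489% for DOPA against 6-OHDA, 0% for DOPA/HFS against 6-OHDA, 0% for DOPA/HFS against DOPA, 0% for the interaction, 0.00489% for the main effect of L-DOPA and 0% for that of stimulation. The moderated F test over the 4 groups called 0 of 7 subunits, none of which had an unadjusted p under 0.05, and 0.00489% of all genes, beside 2.82% at that unadjusted p. Over the 49 differences tested, which are 7 contrasts of 7 genes, 1 had an unadjusted limma p under 0.05. It was Gabra2 in DOPA/HFS against DOPA. Several contrasts share arrays, so these differences are not independent of each other.

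Of the alpha subunits, Gabra4 encodes the alpha4 subunit, which pairs with delta outside synapses. Its log2 signal (probe A_43_P15434) was 10.91, 10.65 and 10.73 in 6-OHDA, 10.67, 10.60 and 10.72 in HFS, 10.98, 11 and 11.04 in DOPA, and 10.88, 10.90 and 10.27 in DOPA/HFS. The DOPA arrays were the highest 3 of the 12 and lay within a narrow range. DOPA/HFS replicate 3 lay below all other arrays, and the other 2 DOPA/HFS arrays lay between DOPA and most of the rest. By group means the order was DOPA (11.01 ± 0.03, SD, n = 3), 6-OHDA (10.76 ± 0.14), DOPA/HFS (10.68 ± 0.36) and HFS (10.66 ± 0.06). The DOPA arrays did not overlap with those of any other group. Over all genes, 6.17% were without overlap in either direction between DOPA and 6-OHDA, and 9.41% between DOPA/HFS and DOPA. This share was not counted for DOPA and HFS. 6-OHDA, DOPA/HFS and HFS overlapped with each other.

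The promoter of Gabra4 and those of Gabra5 and Gabrd are shown because these genes had the lowest unadjusted p-values over the contrasts among the subunits with a promoter in the RefSeq table. The table (build GRCr8) holds 6 of the 7 subunits, without Gabra2. Shown are the 250 bases before the start, read on the strand of the gene, with matches to the searched motifs in capitals. The motifs were GGGCGG (GC box), TGAGTCA (AP-1 element), CACGTG (E box) and TGACGTCA (cAMP response element), each on both strands. Gabra4 (chr14:36944497-36944746, plus strand, GC content 71.6%) had 1 match.
Gabra4: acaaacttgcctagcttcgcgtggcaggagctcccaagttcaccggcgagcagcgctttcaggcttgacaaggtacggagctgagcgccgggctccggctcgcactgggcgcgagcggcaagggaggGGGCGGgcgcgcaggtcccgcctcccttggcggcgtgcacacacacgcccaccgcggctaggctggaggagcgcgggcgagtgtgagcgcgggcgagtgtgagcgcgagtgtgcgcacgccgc
Gabra5 (chr1:117516607-117516856, minus strand, GC content 76.4%) had 1 match.
Gabra5: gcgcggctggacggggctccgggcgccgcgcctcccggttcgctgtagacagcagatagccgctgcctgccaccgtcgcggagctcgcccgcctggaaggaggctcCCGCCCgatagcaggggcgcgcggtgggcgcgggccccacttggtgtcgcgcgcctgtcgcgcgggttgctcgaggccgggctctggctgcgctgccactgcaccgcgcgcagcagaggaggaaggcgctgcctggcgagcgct
Gabrd (chr5:171252710-171252959, minus strand, GC content 74%) had 4 matches, some of which overlap in 1 base.
Gabrd: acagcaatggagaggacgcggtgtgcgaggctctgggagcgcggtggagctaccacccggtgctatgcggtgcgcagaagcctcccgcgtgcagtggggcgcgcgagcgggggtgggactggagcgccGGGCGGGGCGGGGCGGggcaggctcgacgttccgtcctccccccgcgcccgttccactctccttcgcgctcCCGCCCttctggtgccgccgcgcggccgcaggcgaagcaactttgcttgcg
All matches in these promoters were to GGGCGG, which 30.5% of the 33469 promoters of this length hold. The 250 bases before Gabra3, Gabrb1 and Gabrb2 held none of the 4 motifs, and their GC content was 40.4%, 49.2% and 43.2%, beside a median of 51.2% over all promoters. TGAGTCA was found in 4.05%, CACGTG in 5.59% and TGACGTCA in 1.59% of all promoters. A match is a description of the letters only.

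Gabra2 encodes the alpha2 subunit, a main alpha subunit of inhibitory synapses on striatal projection neurons. Its log2 signal (probe A_44_P378252) was 9.38, 9.56 and 9.40 in 6-OHDA, 9.43, 9.30 and 9.32 in HFS, 9.74, 9.55 and 9.71 in DOPA, and 9.46, 9.46 and 8.95 in DOPA/HFS. As with Gabra4, the DOPA group was the highest and DOPA/HFS replicate 3 the lowest array. The group means were 9.67 ± 0.10 in DOPA, 9.45 ± 0.10 in 6-OHDA, 9.35 ± 0.07 in HFS and 9.29 ± 0.29 in DOPA/HFS (SD, n = 3). The DOPA arrays overlapped with 6-OHDA by 1 array (9.55 against 9.56) and did not overlap with HFS or DOPA/HFS. All other neighbours in this order overlapped. Between DOPA/HFS and DOPA, 9.41% of all genes were without overlap in either direction. The share for DOPA and HFS was not counted.

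Gabra5 encodes the alpha5 subunit, which forms mostly extrasynaptic receptors and is best known from the hippocampus. The log2 signal (probe A_44_P414565) was 8.16, 7.27 and 8.08 in 6-OHDA, 7.86, 8.17 and 8.47 in HFS, 7.43, 7.52 and 8.12 in DOPA, and 8.42, 7.96 and 8.26 in DOPA/HFS. Here the stimulated groups were the higher ones, and the 3 arrays below all stimulated ones were 6-OHDA replicate 2 and DOPA replicates 1 and 2. The means were 8.22 ± 0.23 in DOPA/HFS, 8.16 ± 0.31 in HFS, 7.84 ± 0.49 in 6-OHDA and 7.69 ± 0.37 in DOPA (SD, n = 3), and all 4 groups overlapped.

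Gabra3 encodes the alpha3 subunit, known from other forebrain neurons and from striatal interneurons. Its log2 signal (probe A_44_P535601) ran from 6.52 to 7.79 in 6-OHDA (median 6.93), from 6.59 to 7.17 in HFS (median 6.86), from 6.29 to 7.31 in DOPA (median 7.09) and from 6.84 to 7.41 in DOPA/HFS (median 7.18). The highest and the lowest of the 12 arrays, 6-OHDA replicate 1 and DOPA replicate 1, were both on slide 1. All groups overlapped, and no order of them exceeded the spread.

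The beta subunits complete the GABA binding site with an alpha subunit. Gabrb1, which encodes beta1, had log2 signals (probe A_44_P360501) of 10.95, 10.54 and 10.89 in 6-OHDA, 10.88, 10.70 and 10.95 in HFS, 10.89, 10.53 and 10.92 in DOPA, and 10.65, 10.74 and 10.44 in DOPA/HFS. It had the smallest range of the 7 subunits over the 12 arrays, 0.51 log2 units. In 6-OHDA, HFS and DOPA the array on slide 2 was the lowest, and DOPA/HFS held the lowest array of all. Gabrb2, which encodes beta2, was the only subunit with spots not well above background. It was measured above background on 1 of 3 arrays in 6-OHDA, 3 of 3 in HFS, 2 of 3 in DOPA and 2 of 3 in DOPA/HFS. The log2 signal (probe A_42_P641587) was 4.0 to 5.58 in 6-OHDA, 4.95 to 5.55 in HFS, 4.82 to 5.46 in DOPA and 4.70 to 5.86 in DOPA/HFS. This was the widest range of the 7 subunits, 1.86 log2 units, and no group differed beyond it.

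Gabrd encodes the delta subunit of the extrasynaptic receptors that give tonic inhibition. The log2 signal (probe A_43_P11897) was 13.50, 13.86 and 13.94 in 6-OHDA, 13.45, 13.80 and 13.79 in HFS, 13.51, 13.51 and 13.24 in DOPA, and 13.83, 13.48 and 13.73 in DOPA/HFS. DOPA was the lowest group by its mean. However, 6-OHDA replicate 1 (13.50), HFS replicate 1 (13.45) and DOPA/HFS replicate 2 (13.48) fell among the DOPA arrays, and all groups overlapped. The means were 13.77 ± 0.24 in 6-OHDA, 13.68 ± 0.20 in HFS, 13.68 ± 0.18 in DOPA/HFS and 13.42 ± 0.15 in DOPA (SD, n = 3).

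L-DOPA alone was compared with the untreated lesion to ask how chronic, dyskinesia-inducing treatment relates to subunit RNA. In DOPA against 6-OHDA, Gabrd had the largest difference of the 7, -0.35 on the log2 scale (fold 0.787), with a 95% interval from -0.73 to 0.04. Its unadjusted p was 0.0713 and its adjusted p 1 in the limma fit, and the exact permutation p was 0.3. Gabra4 was 0.25 higher (fold 1.19, interval -0.13 to 0.63, unadjusted p = 0.178, adjusted p = 1 in limma), and its exact two-sided permutation p was 0.1, the smallest that 3 arrays against 3 allow. It was the only subunit of the 7 whose groups did not overlap, beside 3.13% of all genes that were higher without overlap and 6.17% in either direction. Gabra2 differed by 0.22 (interval -0.13 to 0.57) with an exact permutation p of 0.2. The other differences were 0.30 for Gabrb2, -0.19 for Gabra3, -0.15 for Gabra5 and -0.02 for Gabrb1. Of the 7 differences 3 lay above 0, beside 47.7% of all genes. The median of the 7 was -0.02 and that of all genes -0.01. At an unadjusted p under 0.05 the fit held 0 of 7 subunits and 2.59% of all genes.

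With stimulation alone, the subunits with the smallest spread between arrays differed by -0.10 to 0.05 log2 units. In HFS against 6-OHDA, the difference was -0.10 for Gabra2 (interval -0.45 to 0.25), -0.10 for Gabra4 (-0.48 to 0.28), 0.05 for Gabrb1 (-0.32 to 0.42) and -0.09 for Gabrd (-0.47 to 0.29). Gabra5 and Gabrb2 each differed by 0.33, with wider intervals (-0.28 to 0.94 and -0.56 to 1.22), and Gabra3 by -0.21 (-0.97 to 0.55). None of the 7 pairs of groups was without overlap, beside 5.14% of all genes. The exact permutation p ranged from 0.3 for Gabra2 to 0.8 for Gabrb1, and the adjusted limma p was 0.998 for all 7. Above 0 were 3 of 7 differences, beside 51.6% of all genes, with medians of -0.09 and 0.01. At an unadjusted p under 0.05 the fit held 0 of 7 subunits and 2.34% of all genes.

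For the combined treatment no subunit was called either, and the intervals were wide. In DOPA/HFS against 6-OHDA, Gabra5 had the largest difference, 0.38 (interval -0.23 to 0.99), followed by Gabrb2 at 0.34 (-0.55 to 1.23) and Gabrb1 at -0.19 (-0.56 to 0.18). Gabra2 differed by -0.16, Gabrd by -0.09, Gabra4 by -0.08 and Gabra3 by 0.06. Without DOPA/HFS replicate 3 the difference was 0.01 for Gabra2, 0.13 for Gabra4, -0.10 for Gabrb1, 0.22 for Gabra3 and 0.63 for Gabrb2. All 7 had an adjusted limma p of 1, with 0 of 7 at an unadjusted p under 0.05 beside 2.76% of all genes, and 0 of 7 without overlap beside 4.19%. Above 0 were 3 of 7 differences, beside 47.7% of all genes, with medians of -0.08 and -0.01.

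**Figure D2:**
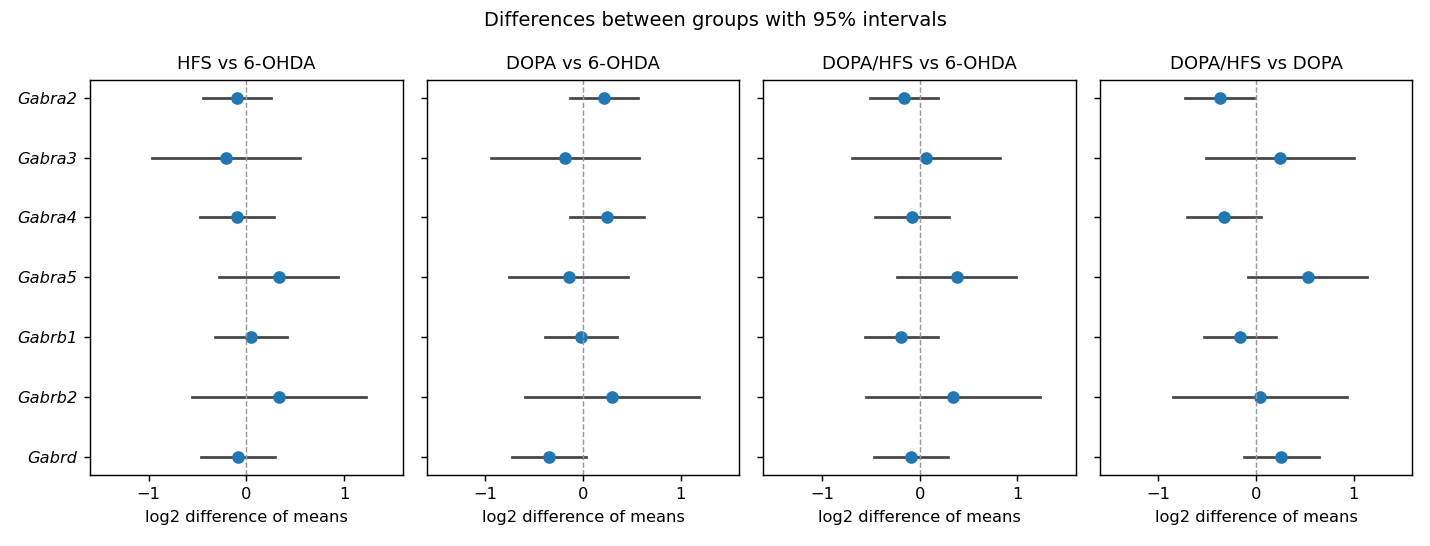
Log2 difference of group means (x axis) for each subunit gene, with its 95% interval from the limma fit of all 12 arrays. In the 3 comparisons with 6-OHDA every interval holds 0, and in DOPA/HFS against DOPA the interval of Gabra2 (-0.72 to -0.03) does not, although no adjusted p was under 0.1.

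Stimulation added to L-DOPA, the comparison of DOPA/HFS with DOPA, was added after the values had been seen. Among the 4 pairwise comparisons that were run, it gave the largest difference for Gabra2, Gabra3, Gabra4 and Gabra5, but not for Gabrb1, Gabrb2 and Gabrd. DOPA against HFS and DOPA/HFS against HFS were not run. By group means, Gabra4 lay farther apart between DOPA and HFS (11.01 and 10.66). Gabra3 did so between DOPA/HFS and HFS (7.14 and 6.87). Gabra2 was lower by 0.37 log2 units (fold 0.771, unadjusted p = 0.0377, adjusted p = 1 in limma) and Gabra4 by 0.33 (fold 0.797, unadjusted p = 0.0845, adjusted p = 1 in limma). Both had arrays that did not overlap, and an exact permutation p of 0.1, the smallest possible. This was 2 of 7 subunits lower without overlap, beside 5.66% of all genes lower and 9.41% in either direction. At an unadjusted p under 0.05 it was 1 of 7 beside 3.79% of all genes. Above 0 were 4 of 7 differences, beside 48.8%. Both differences rest in large part on DOPA/HFS replicate 3. Without it, Gabra2 differed by -0.20 and Gabra4 by -0.12, with unadjusted limma p-values of 0.171 and 0.396. Gabra5 was 0.53 higher (interval -0.08 to 1.13, exact permutation p = 0.2), and 0.50 higher without that array. The remaining differences were 0.26 for Gabrd, 0.25 for Gabra3, -0.17 for Gabrb1 and 0.04 for Gabrb2, with an unadjusted limma p of 0.164 or more. Without that array they were 0.23 for Gabrd, 0.40 for Gabra3, -0.08 for Gabrb1 and 0.34 for Gabrb2. With the slide as a block, 2 of 7 subunits, Gabra2 and Gabra5, had an unadjusted limma p under 0.05, beside 6.02% of all genes.

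Over all rats, 6 stimulated arrays were compared with 6 unstimulated ones. Gabra5 was higher with stimulation by 0.43 (fold 1.35, interval -0.00 to 0.86, unadjusted p = 0.0508, adjusted p = 0.911 in limma). The exact permutation of the label within L-DOPA treatment, with 400 regroupings and a smallest p of 0.005, gave p = 0.07 for this gene. Gabra2 differed by -0.24 (interval -0.48 to 0.01, exact permutation p = 0.015) and Gabra4 by -0.21 (interval -0.48 to 0.06, exact permutation p = 0.02), with an adjusted limma p of 0.911 for both. The unadjusted limma p was 0.0578 for Gabra2 and 0.109 for Gabra4. Among the tests of the main effects, these permutation p-values are the lowest over the subunits, and they are not adjusted. The rest of the 42 permutation tests compare 3 arrays with 3 and cannot give a p under 0.1. The share of all genes with such permutation p-values was not computed. Without DOPA/HFS replicate 3 the differences were -0.15 for Gabra2, -0.11 for Gabra4 and 0.42 for Gabra5. Their exact permutation p-values were 0.035, 0.03 and 0.095. In the same order, the unadjusted limma p was 0.132, 0.261 and 0.0843, and the adjusted limma p was 0.825, 0.830 and 0.825. Gabra3, Gabrb1, Gabrb2 and Gabrd differed by 0.02, -0.06, 0.19 and 0.09 on all arrays, and by 0.10, -0.02, 0.33 and 0.07 without that array.

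Each slide held 1 array of every group, so the main effect of stimulation was also taken within slides. For Gabra2 it was -0.12, -0.17 and -0.42 on slides 1, 2 and 3. Gabra4 gave -0.17, -0.08 and -0.39, and Gabra5 gave 0.35, 0.67 and 0.26. These 3 genes had the same sign on all 3 slides, and the other 4 did not. The share of all genes with the same sign on every slide was not counted, so nothing is read from this agreement. With the slide as a block in the fit, Gabra5 had an unadjusted p of 0.0279 and an adjusted p of 0.680 in limma. It was 1 of 7 subunits under an unadjusted p of 0.05 in that fit, beside 6.96% of all genes. The position of an array on its slide was fixed by group, so position and treatment cannot be told apart. At an unadjusted p under 0.05 the fit without the block held 0 of 7 subunits, beside 4.34% of all genes. No subunit was without overlap, beside 0.163% of all genes. Above 0 were 4 of 7 differences, beside 50.7%.

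**Figure D3:**
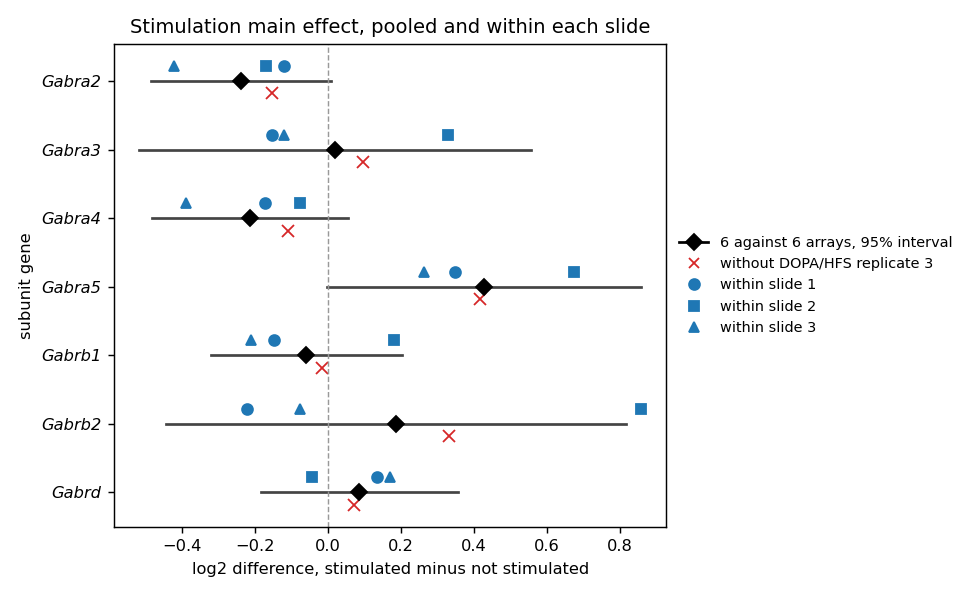
Log2 difference between stimulated and unstimulated arrays (x axis) for each subunit gene. Diamonds and lines are the difference of 6 against 6 arrays with its 95% interval, blue symbols the difference within each slide, and red crosses the difference without DOPA/HFS replicate 3. Gabra2 and Gabra4 lie below 0 and Gabra5 above 0 on all 3 slides, and the intervals of all 7 genes reach 0. The share of all genes with the same sign on every slide was not counted.

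For the main effect of L-DOPA, the largest values were -0.17 for Gabrd (interval -0.44 to 0.10, exact permutation p = 0.195), 0.15 for Gabrb2 (-0.48 to 0.78), 0.13 for Gabra4 (-0.13 to 0.40) and -0.13 for Gabrb1 (-0.39 to 0.14). Gabra2 differed by 0.08, Gabra5 by -0.05 and Gabra3 by 0.04. It held 0 of 7 subunits at an unadjusted p under 0.05, beside 2.73% of all genes, and 0 of 7 without overlap, beside 0.136%. Above 0 were 4 of 7, beside 45.4%. Without DOPA/HFS replicate 3 it was 0.24 for Gabra4 (unadjusted p = 0.0286, adjusted p = 1 in limma), 0.16 for Gabra2, 0.30 for Gabrb2, 0.12 for Gabra3 and -0.08 for Gabrb1. Without this array 1 of 7 subunits thus had an unadjusted p under 0.05, beside 2.45% of all genes. The interaction asks whether the stimulation difference depends on L-DOPA. It was 0.46 for Gabra3 (interval -0.61 to 1.53), 0.35 for Gabrd (-0.19 to 0.89), -0.29 for Gabrb2 (-1.55 to 0.97), -0.27 for Gabra2 (-0.77 to 0.22), -0.23 for Gabra4 (-0.77 to 0.31), -0.22 for Gabrb1 (-0.74 to 0.31) and 0.20 for Gabra5 (-0.66 to 1.06). The adjusted limma p was 1 for all 7, and 0 of 7 had an unadjusted p under 0.05, beside 1.98% of all genes. Above 0 were 3 of 7, beside 48.5%. Without DOPA/HFS replicate 3 the interaction was -0.10 for Gabra2, -0.02 for Gabra4, -0.13 for Gabrb1, 0.01 for Gabrb2, 0.61 for Gabra3, 0.32 for Gabrd and 0.17 for Gabra5. No difference between the stimulation effects with and without L-DOPA was detected, and the intervals above give the sizes that the arrays leave possible.

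Among the 21 pairs of subunits, Gabra2 and Gabra4 varied most alike over the 12 arrays (Pearson r = 0.85, Spearman rho = 0.68). With group means removed r was 0.73. DOPA/HFS replicate 3 is the lowest array for both, and without it r was 0.66 (rho = 0.58) over 11 arrays. Without the 2 arrays farthest from the Gabra2 median it was 0.61. In the RefSeq gene table these genes lie in 1 cluster on chromosome 14, in the order Gabrb1, Gabra4, Cox7b2, Gabra2, Gabrg1. Gabrb1, of the same cluster, had an r of 0.45 with Gabra4 and of 0.36 with Gabra2, which became 0.09 and -0.08 without DOPA/HFS replicate 3. The most opposed pairs were Gabra2 with Gabra5 (r = -0.57, rho = -0.71) and Gabra4 with Gabrd (r = -0.56, rho = -0.50). In the deposited log2 table these became -0.07 and -0.11, while Gabra2 with Gabra4 was 0.88. These correlations are descriptions over arrays that share slides, groups and a normalization. Before normalization between arrays the signals of every pair rose together, with r from 0.44 to 0.94.

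**Figure D4:**
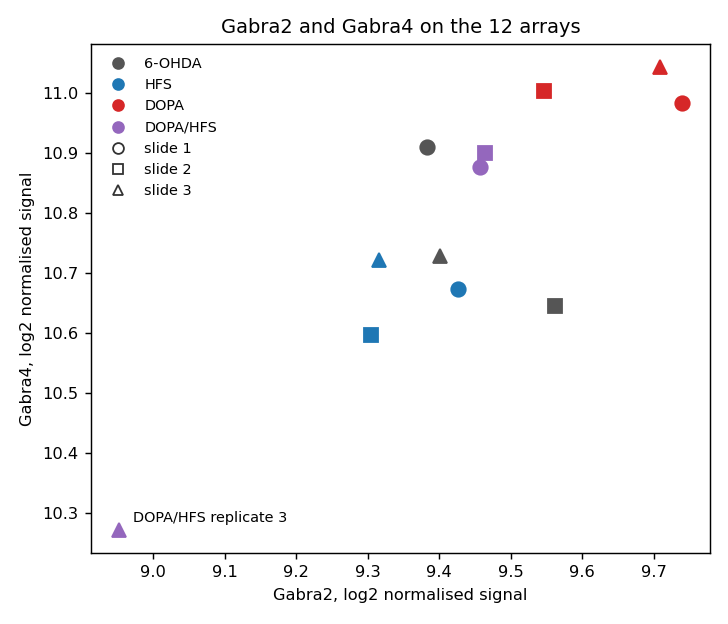
Log2 normalised signal of Gabra2 (x axis) and Gabra4 (y axis) on the 12 arrays, coloured by group with the slide as the symbol. The DOPA arrays are the highest 3 for Gabra4, and DOPA/HFS replicate 3 lies apart at 8.95 and 10.27.

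The genes most like each subunit over the 12 arrays were sought among 18348 genes with a value on every array. For Gabra2 the closest was Srp72 (Pearson r = 0.93), which encodes part of the signal recognition particle. For Gabra3 it was Ptpn3 (0.89), a tyrosine phosphatase gene, and for Gabrb1 it was Cse1l_predicted (0.96), a nuclear export gene. For Gabrb2 it was Ppp3cc (0.91), which encodes a calcineurin catalytic subunit. Those nearest to Gabra4 were RGD1307597_predicted (0.93) and rnf141 (0.92). Gabra5 was nearest to an unnamed sequence (DV718686, 0.93) and Spire2_predicted (0.93), and Gabrd to an unnamed probe (A_44_P898713, 0.93). Without DOPA/HFS replicate 3 the values of the closest gene ran from 0.85 for Gabra4 to 0.94 for Gabrb1. With 12 arrays and so many genes, high values arise readily, and nothing is read from them on function.

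Of 12 other GABA-A receptor subunit genes on the array, 5 passed the filter, among them Gabrg1 and Gabrq, and 0 were called in any contrast or had an unadjusted p under 0.05. Their differences ranged from -0.31 to 0.19 in HFS against 6-OHDA, from -0.21 to 0.12 in DOPA and from -0.35 to 0.37 in DOPA/HFS, with medians of -0.11, -0.09 and -0.08. The 6 lists of related genes held 42 tested genes, of which 0 were called in any of the 7 contrasts and 5 had an unadjusted p under 0.05 in at least 1, a share close to the 11.3% of all tested genes. The 5 are described by their values only. The proteins that anchor, assemble and traffic the receptors gave 4 of these (Hap1, Nlgn2, Slitrk3_predicted and Gabarapl2, of 18 tested), and the genes of GABA synthesis, transport and breakdown gave Gad1 (of 8 tested). The 4 genes of the GABA-B receptor, the 4 of neuronal chloride transport and the 3 of neurosteroid and endozepine synthesis gave none. The median difference of a list ranged over the contrasts from -0.09 to 0.12 for anchoring and trafficking, from -0.25 to 0.14 for the GABA-B receptor, from -0.03 to 0.14 for GABA synthesis and transport, from -0.11 to 0.06 for chloride transport and from -0.15 to 0.24 for neurosteroid synthesis. That of all genes lay between -0.02 and 0.01.

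Hap1, whose product helps to return internalised receptors to the membrane, had log2 signals of 12.38, 12.11 and 12.46 in 6-OHDA, 12.35, 12.18 and 12.34 in HFS, and 11.48, 11.80 and 12.07 in DOPA. In DOPA/HFS it had 12.60 and 12.66, and the spot on replicate 3 was left out as an outlier. The DOPA arrays were the lowest of all, and the share of all genes with such an order was not counted. The difference was -0.53 in DOPA against 6-OHDA (SE 0.17, unadjusted p = 0.0118, adjusted p = 1 in limma) and 0.85 in DOPA/HFS against DOPA (SE 0.19, unadjusted p = 0.00143, adjusted p = 1 in limma), the latter resting on 2 DOPA/HFS arrays. Its interaction was 0.88 (SE 0.26, unadjusted p = 0.00734, adjusted p = 1 in limma). The main effect of stimulation on Hap1 was 0.41 (unadjusted p = 0.0105, adjusted p = 0.911 in limma), while HFS against 6-OHDA differed by -0.03. Nlgn2, which encodes the adhesion protein neuroligin 2 of inhibitory synapses, differed by -0.38 in DOPA against 6-OHDA (unadjusted p = 0.0252, adjusted p = 1 in limma). Slitrk3_predicted, another adhesion gene of inhibitory synapses, differed by 0.37 in the same comparison and by -0.44 in DOPA/HFS against DOPA (unadjusted p = 0.0365 and 0.0163, adjusted p = 1 in limma). The interaction of Slitrk3_predicted was -0.57, with an unadjusted limma p of 0.0259, and was not called. Gabarapl2, a gene of the family of GABA-A receptor-associated proteins, differed by -0.49 in DOPA/HFS against DOPA (unadjusted p = 0.0369, adjusted p = 1 in limma).

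Gad1, which encodes a GABA-synthesising enzyme, had log2 signals of 11.91, 11.09 and 11.94 in 6-OHDA, 11.51, 11.43 and 11.97 in HFS, 12.21, 12.05 and 12.11 in DOPA, and 12.22, 12.16 and 11.86 in DOPA/HFS. The L-DOPA groups were the higher ones, and only DOPA/HFS replicate 3 fell among the arrays of 6-OHDA and HFS. The main effect of L-DOPA was 0.46 (interval 0.09 to 0.83, unadjusted p = 0.0184, adjusted p = 1 in limma). For each of the 7 receptor subunits the interval of this main effect held 0.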

How the data were processed

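The intensity values were deposited as scanner files of 12 single-colour arrays, in which Agilent Feature Extraction 9.1 (the submitters' processing notes) had quantified, background-corrected and detrended each spot, with no normalization between arrays. The value table that was also deposited holds log2 values that the authors had quantile normalized, and was used as an alternative. No genome build was needed for the arrays.

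Without control spots and those marked as outliers, the intensities were log2-transformed, then quantile normalized and averaged per probe. A probe was kept if its spot was well above background on a fraction of 0.4 or more of the arrays, and the brightest probe stood for a gene. Of 41012 probes, 10735 were named by RefSeq accession and 1222 by gene ID, and 29055 kept the name in the files. The 4 groups were fitted together with limma 3.58.1 in R 4.3.3, with p-values adjusted over 20465 genes. The moderated F test stood for the multi-class SAM of the study's methods, and limma for its 2-class SAM. Exact permutation tests were two-sided. The fit was also run on simulated data with known changes and independent noise, without slide effects or outlier spots. That run does not show how the fit behaves where such effects are present. The number of arrays limits the precision.

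The subunits and gene lists were chosen with earlier results of these data known, so their counts are descriptions. Named are the 7 subunits, genes of the lists and the genes most correlated with a subunit. The comparison of DOPA/HFS with DOPA was added after the values were seen. The replicate number is the slide. Of 18 pairs of arrays that share a slide, 10 had deviations from the group means correlated over 0.1 (range -0.29 to 0.48, median 0.11), against 7 of 36 pairs on different slides (median -0.07). The numbers did not pair every array, so the fit has no block, and the fit with the slide as a block is given as an alternative.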

Additional observations from a re-analysis of the deposited data

How the results depend on the processing

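Under 12 alternatives of processing or testing for the pairwise comparisons (11 for the interaction, the main effects and the F test, since the fit of only the arrays compared was run for the pairwise ones) and the leaving out of each array in turn, 0 of the 7 subunits were called in any contrast or by the F test, and the lowest adjusted p of any subunit was 0.519. With the slide as a replicate block, 0 subunits were called in each comparison, and the unadjusted p of Gabra5 for the main effect of stimulation was 0.0279 (adjusted p = 0.680 in limma).

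Of the 49 subunit differences, 23 changed sign under at least 1 setting. With outlier spots kept, and in the deposited log2 table, these were Gabra3 in DOPA/HFS against 6-OHDA (-0.16 and -0.13), the interaction of Gabra5 (-0.0051 and -0.10), the main effects of L-DOPA on Gabra2 (-0.016 and -0.0049) and Gabra3 (-0.068 and -0.065), and that of stimulation on Gabra3 (-0.092 and -0.061). With outlier spots kept, Gabrb2 was -0.13 in DOPA/HFS against DOPA. Both settings keep the outlier spots of DOPA/HFS replicate 3, and they moved the median of all genes in DOPA/HFS against 6-OHDA to -0.14 and -0.11, and in the DOPA/HFS against DOPA comparison to -0.13 and -0.10.

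With 1 array left out at a time, the following differences changed sign, and their ranges are given. In HFS against 6-OHDA they were Gabra3 (-0.49 to 0.15), Gabrb1 (-0.078 to 0.13), Gabrb2 (-0.14 to 0.65) and Gabrd (-0.22 to 0.029). In DOPA against 6-OHDA they were Gabra3 (-0.47 to 0.17), Gabra5 (-0.43 to 0.013), Gabrb1 (-0.14 to 0.11) and Gabrb2 (-0.17 to 0.62). In DOPA/HFS against 6-OHDA they were Gabra2 (-0.24 to 0.011), Gabra3 (-0.22 to 0.42), Gabra4 (-0.19 to 0.13), Gabrb2 (-0.13 to 0.66) and Gabrd (-0.22 to 0.014). In DOPA/HFS against DOPA they were Gabra3 (-0.057 to 0.45) and Gabrb2 (-0.24 to 0.34). The others were the interaction of Gabrb2 (-0.61 to 0.18), the main effects of L-DOPA on Gabra3 (-0.10 to 0.22), Gabra5 (-0.19 to 0.032) and Gabrb2 (-0.081 to 0.31), and those of stimulation on Gabra3 (-0.13 to 0.20) and Gabrb2 (-0.050 to 0.35). The differences of Gabra2, Gabra4 and Gabrd in DOPA against 6-OHDA, and of Gabra2, Gabra4 and Gabra5 in the main effect of stimulation, kept their sign under every setting run. A value with an array left out assumes that the remaining arrays of its group vary like the other groups.

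Over all genes, the count called was 0 in HFS against 6-OHDA, 3 with no filter on dim probes, 1 with the filter over the 3 arrays of a group and 0 to 2 with an array left out. It was 1 in DOPA against 6-OHDA, 2 with only the arrays compared, and 0 with no filter on dim probes, with the mean of all probes, with the block or at an adjusted p under 0.05. In this comparison it also fell to 0 when any 1 array of 6-OHDA or HFS, or DOPA replicate 1 or 2, was left out. Without DOPA replicate 3 or DOPA/HFS replicate 2 it was 2. It was 1 for the main effect of L-DOPA, and 2 with the normexp correction, the group filter or every probe on its own. The interaction and the main effect of stimulation went from 0 to 1 with the group filter. Without DOPA/HFS replicate 1 the counts were 13 in DOPA against 6-OHDA, 3 in DOPA/HFS against 6-OHDA and 28 for the main effect of L-DOPA. The cause was not tested. Gabrb2, well above background on 8 of 12 arrays, had the widest intervals of the subunits. Whether its low signal accounts for their width was not tested.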
